A study of Mus musculus with 4 samples.

Results

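Oxidative phosphorylation is carried out by the genes described here, which were taken by name from the table of kidney nuclei as every row that begins with mt-, Uqcr or Atp5, with Nduf followed by a, b, c, s or v, or with Cox4 to Cox8, together with Sdha to Sdhd. They were 102 of 19609 gene rows. Of these, 13 were encoded by the mitochondrial genome and 89 by the nuclear genome. By name, the nuclear ones were 35 rows of complex I and 8 of its assembly factors (Ndufaf genes). Another 4 were of complex II, 8 of complex III, 17 of complex IV and 17 of complex V. These are rows and not always distinct subunits, since Atp5o and Atp5o.1 were both counted.

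The samples were cortex from the kidneys of 4 male mice of mixed strain, 1 per condition, and single nuclei were sequenced. Control mice carried the TRE-hKLF6 transgene alone, which is not induced without a transactivator, and hKLF6OE mice also carried rtTA under the CMV-chicken beta-actin promoter, which is active in most tissues, so that human KLF6 was switched on by doxycycline outside the tubule as well. All 4 mice were fed doxycycline for 1 week, and 1 mouse of each genotype was given a single injection of aristolochic acid I (AAI), a plant toxin that forms DNA adducts in the proximal tubule, at 2 mg/kg and was killed after 24 hours. Ages are not given in the sources used here. Each deposited value is a level averaged over all nuclei that 1 mouse contributed to 1 cluster, in counts per 10000 counts of a nucleus, and there are 23 clusters and 4 mice. Each of 14 marker lists was highest in a cluster of the matching name, but 2 clusters did not follow their names. EC-1 was not among the 3 highest clusters for endothelial markers, and PT-S3-1 was not among the 3 highest for S3 markers, where the third, DCT_CNT, had 12.7, but was the third for S1-S2 markers, at 55.3. For mesangial cells, the summed markers reached only 5.10 in MC against 3.04 in the principal cell cluster CD_PC. With 1 mouse per condition there was no spread between mice of a condition and no test, so a difference is a description of 2 mice, or of the same direction in 4 mice where segments were compared. The number of nuclei behind a value is not in the table. As a stand-in, the share of genes listed at 0 ran from 15.1% in PT-S3-1 of the control mouse to 63.4% in Macrophage of the control mouse with AAI, and it was 62.6% and 40.8% in InjuredPT-A of the control and hKLF6OE mice without AAI.

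The respiratory chain passes electrons from NADH through complex I, or from succinate through complex II, to complexes III and IV, and the proton gradient they build drives ATP synthase, complex V. Complexes I, III, IV and V are mosaics of subunits made in the mitochondrion and subunits imported from the cytosol, whereas complex II is wholly nuclear-encoded. Proximal tubule, thick ascending limb, distal convoluted tubule and type A intercalated cells hold many mitochondria to power ion transport, and podocytes and endothelium hold fewer. In isolated nuclei, mitochondrially encoded transcripts come from outside the nucleus, and spliced cytoplasmic transcripts can be carried along with them.

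Promoters of nuclear-encoded members are known to be bound by NRF1, by GABP of the ETS family, by YY1 and by estrogen-related receptors (ERR), and exact matches to a short core of each motif were counted on both strands in the 250 bases before and 50 bases after the start in RefSeq for GRCm38.p6. A promoter was held for 72 of the 89 nuclear members and for 13781 genes in all. The NRF1 core GCGCATGC was in 16.7% of the members against 4.33% of all promoters, the GABP core CCGGAAG in 23.6% against 14.5%, the ERR core CAAGGTCA in 5.56% against 1.21% and the YY1 core AAGATGGCG in 9.72% against 2.46%. In that order, the members holding a core were 12, 17, 4 and 7 of 72. Among the 3354 promoters of genes with a mean level of at least 0.5, the shares were 6.23%, 15.2%, 1.07% and 3.58%. The 5 promoters below are those of Atp5b, the member most often higher outside the proximal tubule, of Cox8a, the nuclear member with the largest difference between genotypes, of Atp5l, which was higher in the ascending limb and holds 3 of the 4 cores, of Ndufaf2, which stood apart in InjuredPT-A, and of Cox7b2, an isoform found mainly in podocytes. Capitals mark the GABP core (CTTCCGG on this strand) and, in Atp5l, also the NRF1 core (GCATGCGC) and the ERR core (TGACCTTG). Atp5b, Ndufaf2 and Cox7b2 hold none of the 4 letter strings in this window. The windows are chr10:128083057-128083356 on the plus strand for Atp5b, and on the minus strand chr19:7217567-7217866 for Cox8a, chr9:44920693-44920992 for Atp5l, chr13:108158576-108158875 for Ndufaf2 and chr5:71548156-71548455 for Cox7b2.
Atp5b: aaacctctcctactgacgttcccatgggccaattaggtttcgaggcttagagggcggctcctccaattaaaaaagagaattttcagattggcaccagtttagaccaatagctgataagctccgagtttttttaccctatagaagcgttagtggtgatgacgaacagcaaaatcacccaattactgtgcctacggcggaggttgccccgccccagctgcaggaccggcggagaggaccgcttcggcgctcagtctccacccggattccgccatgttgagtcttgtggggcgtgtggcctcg
Cox8a: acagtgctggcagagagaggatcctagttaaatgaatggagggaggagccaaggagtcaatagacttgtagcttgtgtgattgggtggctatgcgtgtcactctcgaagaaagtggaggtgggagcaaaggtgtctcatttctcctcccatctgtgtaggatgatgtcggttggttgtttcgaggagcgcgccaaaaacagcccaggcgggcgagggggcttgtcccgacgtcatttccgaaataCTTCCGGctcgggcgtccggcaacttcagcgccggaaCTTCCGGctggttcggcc
Atp5l: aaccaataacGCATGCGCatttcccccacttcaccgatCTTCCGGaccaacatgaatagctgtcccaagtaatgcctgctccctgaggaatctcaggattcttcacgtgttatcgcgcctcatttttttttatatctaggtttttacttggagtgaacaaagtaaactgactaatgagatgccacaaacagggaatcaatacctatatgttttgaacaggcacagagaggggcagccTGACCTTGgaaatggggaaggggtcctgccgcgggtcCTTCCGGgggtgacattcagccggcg
Ndufaf2: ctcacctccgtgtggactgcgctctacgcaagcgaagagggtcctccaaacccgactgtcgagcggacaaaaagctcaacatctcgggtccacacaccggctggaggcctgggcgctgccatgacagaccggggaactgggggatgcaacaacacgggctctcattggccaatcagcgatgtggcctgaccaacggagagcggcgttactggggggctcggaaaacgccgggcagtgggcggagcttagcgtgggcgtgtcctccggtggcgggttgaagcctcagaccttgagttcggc
Cox7b2: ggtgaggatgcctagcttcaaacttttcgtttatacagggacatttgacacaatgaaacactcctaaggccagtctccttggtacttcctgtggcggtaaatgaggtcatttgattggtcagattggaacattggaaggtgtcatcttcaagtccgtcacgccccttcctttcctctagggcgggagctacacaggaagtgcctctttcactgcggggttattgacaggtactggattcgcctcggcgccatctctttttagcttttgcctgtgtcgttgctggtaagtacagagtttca

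Summed over the 89 nuclear members, the level was lowest in the last part of the proximal tubule and higher in the ascending limb and type A intercalated cells. In PT-S3-3 it was 47.8 in the control mouse, 46.3 in control with AAI, 67.7 in hKLF6OE and 40.0 in hKLF6OE with AAI. In LH-AL-1, the main cluster of the ascending limb, the same sums were 81.0, 75.2, 110 and 76.4, and in IC-A, the type A intercalated cells, they were 81.6, 68.0, 109 and 72.9. The 4 mice of PT-S3-3 lay below all 4 of LH-AL-1 and all 4 of IC-A. The 3 PT-S3 clusters were among the lowest 5 of 23 clusters in each of the 4 mice, for the nuclear and for the mitochondrially encoded sum.

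Clusters outside the tubule lay at both ends of the order. The mean nuclear sum of the 4 mice was 124 in MC, 97.2 in the endothelial cluster EC-2 and 91.7 in Macrophage, above the 85.6 of LH-AL-1. EC-1, which the endothelial markers did not place, had 65.1, and podocytes had 56.8. InjuredPT-A had the highest mean, 147, but its 4 mice ran from 88.6 to 248, and the higher values were those of the mice without AAI. Each cluster overlapped in range with the next in the order, in all 22 neighbouring pairs for both sums, and a cluster lay above its neighbour in all 4 mice in 1 pair for the nuclear sum and in 2 pairs for the mitochondrially encoded sum.

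**Figure D1:**
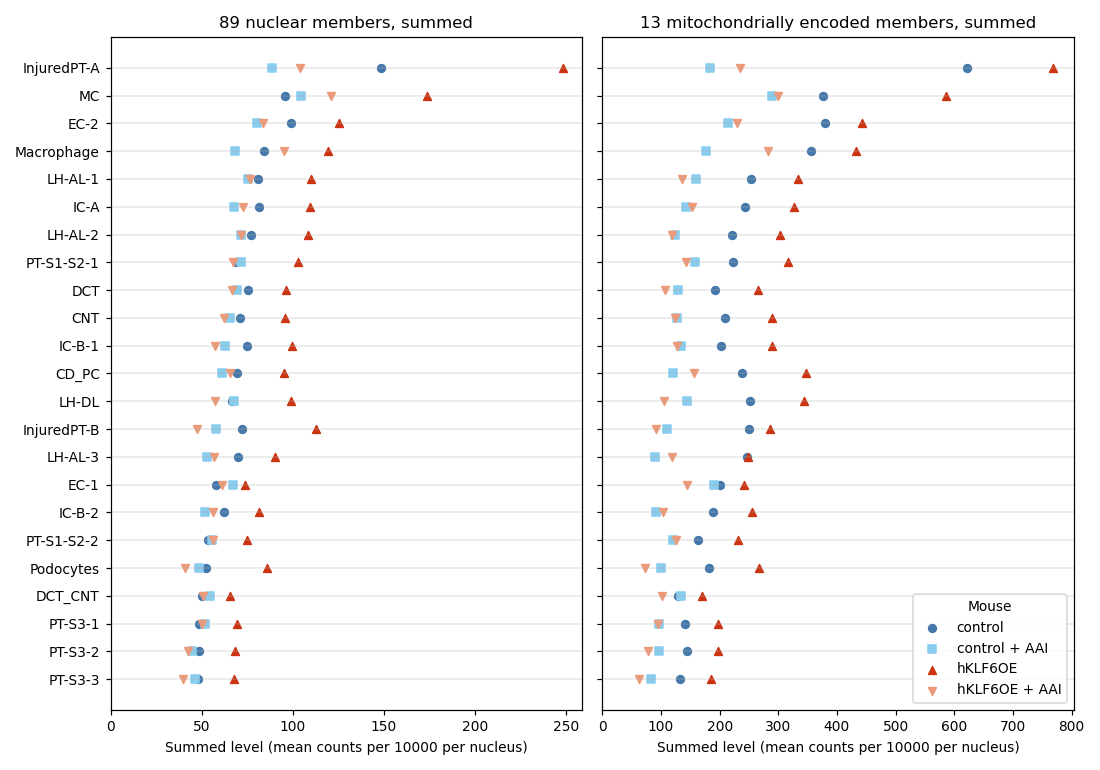
Summed level of the nuclear members (left) and of the mitochondrially encoded members (right) in counts per 10000 per nucleus, with 1 point for each of 4 mice in each of 23 clusters, ordered by the mean nuclear sum. The hKLF6OE mouse without AAI (red triangles) is the highest point in 23 of 23 clusters on both sides, and the 3 PT-S3 clusters lie at the bottom.

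The hKLF6OE mouse without AAI had the highest nuclear sum and the highest mitochondrially encoded sum in 23 of 23 clusters, podocytes and macrophages included. The same mouse was also the highest in 23 of 23 clusters for cytosolic ribosomal proteins, which are short, abundant and outside the chain. Over the 92 columns, the log2 nuclear sum had a Pearson r of 0.916 with the sum of cytosolic ribosomal proteins and 0.908 with the mitochondrially encoded sum, as a description of columns that share mice and scaling. The genes outside the members whose level was most like the nuclear sum were Fth1 (r = 0.90), a ferritin subunit, and Kap (r = 0.90), an androgen-regulated proximal tubule transcript, followed by Slc25a5, the adenine nucleotide carrier, Hsp90ab1 and Hspa8, chaperones, Rps29, Prdx1, Aldoa, Prdx5 and Ly6a, among 4207 genes compared over 92 columns. Kap was about as high in podocytes (73.7, 50.6, 111 and 32.8 in control, control with AAI, hKLF6OE and hKLF6OE with AAI), as in normal proximal tubule (56.4, 47.8, 84.4 and 35.5), and followed the same order of mice. The part of RNA from outside the nucleus in the members' values was not tested.

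For comparisons gene by gene, the difference in log2(level + 1) of each gene was taken within each mouse against normal proximal tubule, here the average of 5 clusters, PT-S1-S2-1, PT-S1-S2-2, PT-S3-1, PT-S3-2 and PT-S3-3. It counted as higher, or as lower, where all 4 mice differed by at least 0.2 in the same direction. The 5 clusters of this average were not alike. Their mean nuclear sum was 77.7 in PT-S1-S2-1 and 50.4 in PT-S3-3, beside 82.2 in LH-AL-2 and 77.0 in DCT, the distal convoluted tubule. Genes needed a mean of at least 0.5 over the 92 columns, which left 4272 genes, 54 of the 89 nuclear members and 11 of the 13 mitochondrially encoded ones. The 35 nuclear members left out had too low a mean, among them 18 of the 35 complex I subunits and both rows named for the complex V subunit Atp5o. Clusters had been defined from these values, so no p is given. The pseudocount of 1 shrinks the differences of genes near a level of 1, where most nuclear members lay, and with a pseudocount of 0.1 more of them were counted.

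In the ascending limb, the mean of LH-AL-1 and LH-AL-2, 16 of 54 nuclear members were higher than in normal proximal tubule and 0 lower, where 16.5% of all genes were higher and 20.2% lower. With a pseudocount of 0.1 the count was 37, and with a threshold of 0.5 it was 1. LH-AL-3, the third ascending limb cluster, was left out of this average, and 60.5% to 63.4% of its genes were listed at 0. Its nuclear sum was 69.8, 53.0, 90.1 and 56.5 in the 4 mice, against 53.4, 54.1, 76.7 and 51.2 in normal proximal tubule, so that control with AAI was not higher. With LH-AL-3 included in the average, an alternative chosen after seeing the data, 4 of 54 nuclear members were higher and 0 lower. The 16 are thus a count for LH-AL-1 and LH-AL-2. The median difference of the nuclear members was 0.28, 0.17, 0.31 and 0.22 in the 4 mice, against medians within 0.02 of zero for all genes tested, and the summed level was 1.36 to 1.48 times that of the proximal tubule. The sum of cytosolic ribosomal proteins was also above that of the proximal tubule, at 1.15 to 1.34 times, and 1 of 33 was counted as higher.

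Complex IV and complex V gave 5 members each of the 16. Cox7b, a small subunit of complex IV, had levels of 1.77, 1.86, 2.47 and 1.79 in the ascending limb of control, control with AAI, hKLF6OE and hKLF6OE with AAI, against 0.956, 0.939, 1.33 and 0.883 in normal proximal tubule, a difference of 0.50 to 0.58. Cox8a, another small subunit of complex IV, had 3.69, 3.11, 5.65 and 2.88 against 2.13, 2.04, 3.89 and 1.85. Cox7b did not overlap between the segments, and Cox8a did, since it reached 3.89 in the hKLF6OE proximal tubule, although each mouse was higher in its own ascending limb. Atp5b, the catalytic beta subunit of ATP synthase, had 4.37, 4.69, 6.46 and 4.23 against 3.05, 3.25, 4.44 and 2.64. Atp5l, a membrane subunit of complex V whose promoter holds the NRF1, GABP and ERR cores shown above, had 1.77, 1.91, 2.09 and 1.77 against 1.02, 1.09, 1.49 and 1.06, with no overlap between the segments.

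Complex I added 4 of 17 members, Ndufs1, Ndufs3, Ndufs4 and Ndufa10, and complex II added Sdha, its flavoprotein. Ndufs1, the largest iron-sulfur subunit of complex I, had 2.24, 2.31, 2.13 and 2.33 in the ascending limb against 1.46, 1.46, 1.44 and 1.54 in the proximal tubule. Of the 11 mitochondrially encoded genes, mt-Atp6, mt-Nd4, mt-Co3, mt-Cytb, mt-Co1 and mt-Co2 were higher, and mt-Atp6 had the clearest difference, at least 0.43 in each mouse.

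Among regulators of the chain, Ppargc1a, Esrrb and Ppara differed between these segments by more than any member did. Ppargc1a, the coactivator of mitochondrial biogenesis, had 10.5, 11.7, 10.6 and 12.7 in the ascending limb against 1.98, 2.11, 1.95 and 2.24. Esrrb, an estrogen-related receptor, had 7.04, 7.19, 7.63 and 6.49 against levels of at most 0.135. Ppara, the fatty acid oxidation receptor, went the other way, with 1.28, 1.30, 1.03 and 1.35 against 5.10, 10.7, 4.92 and 8.02. These, with Ppargc1b (0.52), were the 4 of 9 regulators counted, and Esrra, Esrrg, Nrf1, Yy1 and Lrpprc were not. In the citric acid cycle 5 of 14 genes were higher and 0 lower, led by Idh2 (0.97) and Cs (0.56), the mitochondrial isocitrate dehydrogenase and citrate synthase. In glycolysis 6 of 11 were higher, led by Hk1 (2.18) and Pfkp (1.20). Among 10 carriers and porins 5 were higher and 1 lower, and the pair of aspartate-glutamate carriers split, Slc25a12 being higher by 0.99 and Slc25a13 lower (-0.94).

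In the distal convoluted tubule 11 of 54 nuclear members were higher and 0 lower, where 15.4% of all genes were higher and 23.1% lower, and 22 were counted with a pseudocount of 0.1 and 0 with a threshold of 0.5. The summed level was 1.26 to 1.42 times that of the proximal tubule average, and cytosolic ribosomal proteins were at 0.961 to 1.16 times. Against PT-S1-S2-1 alone the distal convoluted tubule was not higher, since the nuclear sum of PT-S1-S2-1 was above it in 3 of 4 mice. Ndufs3, Ndufs4, Cox7b, Sdha and Uqcrh led. Ndufs4, an accessory subunit of complex I, had 2.62, 2.12, 2.04 and 2.29 in the distal convoluted tubule against 1.37, 1.12, 1.41 and 1.05. Of the 11 mitochondrially encoded genes 0 were counted as higher or lower here, and their sum was 1.06 to 1.20 times that of the proximal tubule. Ppargc1a (1.64) and Esrrb (2.53) were again higher and Ppara lower (-1.87), as medians of the 4 mice.

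Type A intercalated cells had 9 of 54 nuclear members higher and 0 lower, where 16.5% of all genes were higher and 17% lower, so that the members' share was close to that of all genes. With a threshold of 0.5 the count was 0. Without the hKLF6OE mouse with AAI it was 15, but a count cannot fall when a mouse is left out. Atp5b, Sdha, Atp5f1, Ndufa10 and Cox7b led. Sdha had 2.65, 3.44, 3.32 and 3.99 against 1.81, 1.85, 1.98 and 1.91, and the 4 mice did not overlap between segments. Of the mitochondrially encoded genes 7 of 11 were higher, and the nuclear sum was 1.26 to 1.53 times that of the proximal tubule, with cytosolic ribosomal proteins at 1.17 to 1.43 times. In these cells 4 of 9 regulators were higher, namely Ppargc1a (1.42), Ppargc1b (0.29), Esrrb (0.71) and Esrrg (0.57), and Ppara was lower (-1.78).

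Connecting tubule had 3 nuclear members higher (Cox7b, Atp5b and Sdha), principal cells 2 (Atp5b and Ndufa4) and type B intercalated cells 3 (Ndufs4, Sdha and Cox7b), with 0 lower in each. The shares of all genes counted as higher were 14.9%, 14.9% and 16.4%, and the members' counts were below them. In podocytes 0 nuclear members were higher and 1, Ndufs1, was lower, where 10.7% of all genes were higher and 25.7% lower. Ndufs1 had 0.639, 0.888, 0.546 and 0.785 in podocytes against 1.46, 1.46, 1.44 and 1.54, and the 4 mice did not overlap. The median of all genes in podocytes was itself at -0.10 to -0.13, and the summed nuclear level was 0.795 to 1.12 times that of the proximal tubule, with the hKLF6OE mouse without AAI alone above 1. Regulators were low there, with Esrrg at 4.73, 4.84, 3.20 and 4.61 against 32.4, 40.2, 26.9 and 40.9, and Ppargc1a at 0.941, 0.692, 0.338 and 0.555.

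EC-2 and mesangial cells had 27 and 28 of 54 nuclear members higher and 0 lower, where 17.8% and 14.3% of all genes were higher. Cytosolic ribosomal proteins were higher in nearly the same way, 30 and 28 of 33, and the mitochondrially encoded genes in 9 and 11 of 11. By counts at this threshold they differed from the ascending limb and the distal convoluted tubule. There 1 and 0 of the 33 ribosomal protein genes were higher beside 16 and 11 nuclear members. As a sum, ribosomal proteins of the ascending limb were also above the proximal tubule, at 1.15 to 1.34 times. In EC-2 the sum of 8 abundant proximal tubule transcripts, Kap among them, was 0.941 to 1.12 times that of normal proximal tubule. In mesangial cells it was 1.13 to 1.49 times. It was 0.443 to 0.695 times in the ascending limb and 0.358 to 0.740 times in podocytes. The part of RNA from other cells in these counts was not tested. Across the 9 comparisons with normal proximal tubule, Atp5b was higher in 7, and Cox7b, Sdha and mt-Nd4 in 6 each. Ndufs1 was the only nuclear member counted as lower in any of them.

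**Figure D2:**
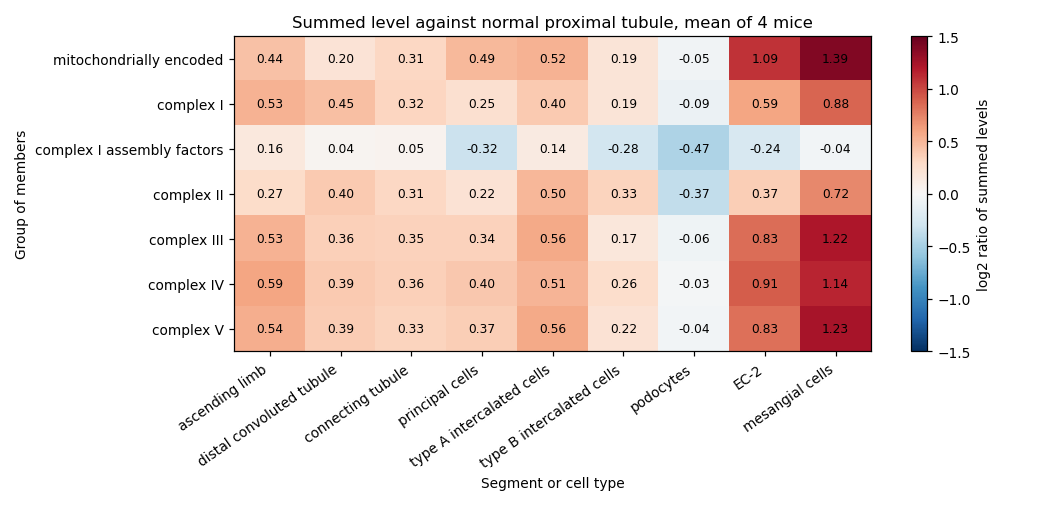
log2 ratio of the summed level in each segment to that in normal proximal tubule, averaged over 4 mice, for 7 groups of members. Ascending limb, distal convoluted tubule and type A intercalated cells are above the proximal tubule in complexes I to V, and podocytes are near or below it. Mesangial cells stand highest in complexes I to V, with EC-2 next to them in all but complex II. The low assembly factor sum does not follow.

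Within the proximal tubule the members were lower in the average of the 3 PT-S3 clusters than in that of the 2 PT-S1-S2 clusters. The 2 PT-S1-S2 clusters were unlike each other. Their mean nuclear sums were 77.7 in PT-S1-S2-1 and 60.1 in PT-S1-S2-2, against 55.0 in PT-S3-1. For the mitochondrially encoded sum these means were 210, 160 and 132, so PT-S1-S2-2 lay nearer to PT-S3-1 than to PT-S1-S2-1. Of 54 nuclear members 0 were higher and 12 lower, where 7.87% of all genes were higher and 9.85% lower, and 37 were counted as lower with a pseudocount of 0.1 and 0 with a threshold of 0.5. Without PT-S3-1, which the S3 markers did not place, the count was also 12. All 11 mitochondrially encoded genes that passed the filter were lower. The 12 were unevenly spread, with 8 of 13 in complex V, 3 of 10 in complex IV, 1 of 8 in complex III and 0 of 17 in complex I. Atp5b had 2.66, 2.67, 3.89 and 2.18 in PT-S3 against 3.64, 4.11, 5.26 and 3.32 in PT-S1-S2. Atp5g3, a c-ring subunit of ATP synthase, had 0.891, 0.839, 1.40 and 0.885 against 1.37, 1.51, 2.15 and 1.52, and Ndufa4, a subunit of complex IV despite its name, had 0.927, 0.916, 1.72 and 0.954 against 1.34, 1.62, 2.59 and 1.49. In each mouse S3 was the lower, and across mice the values overlapped, since the hKLF6OE mouse was higher in both segments. mt-Co1 had 27.6, 21.4, 35.3 and 24.1 against 39.5, 31.4, 50.6 and 39.1.

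In complex I the summed level was also lower in S3, at 0.736 to 0.811 times that of S1-S2, although 0 of its 17 members passed the threshold, and complex V was at 0.663 to 0.762 times. The sums of cytosolic ribosomal proteins (0.695 to 0.762) and of 8 abundant proximal tubule transcripts (0.529 to 0.667) were lower in S3 too, and 5 abundant distal transcripts, which the proximal tubule should lack, were at 0.623 to 0.698 times. Those values moved with the members, and their part in the difference was not tested. Among other genes Ppargc1a (-0.79), Ppara (-0.85) and the carriers Slc25a3, Slc25a4, Slc25a5 and Slc25a12 were lower. Of the 4 mitochondrial ribosomal proteins that passed the filter 0 were counted as lower, and the sum of all 75 was at 0.882 to 0.936 times.

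Next the conditions were compared in normal proximal tubule, with 1 mouse on each side and a gene counted from a difference of 0.2. Without AAI, 36 of 54 nuclear members were higher in hKLF6OE than in control and 0 lower, where 7.14% of all genes were higher and 7.84% lower. Their median difference was 0.25, and 10 of 11 mitochondrially encoded genes were higher, with a median of 0.47. With a threshold of 0.5, 2 nuclear members were higher. Cox8a led with 2.13 in control and 3.89 in hKLF6OE (0.64), followed by Ndufa4 with 1.09 and 2.07 (0.55) and Atp5d, the delta subunit of ATP synthase, with 1.11 and 1.98 (0.50). Complex IV had 9 of 10 members higher, complex V 10 of 13, complex III 6 of 8, complex I 9 of 17 and complex II 2 of 4.

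The long members were not among those counted. The genomic span of the nuclear members had a median of 7.67 kb, against 22.8 kb for all genes. Among genes that passed the filter these medians were 7.95 and 59.0 kb, and 27.0% of all genes were under 30 kb. Of the 54 nuclear members that passed it, 50 were under 30 kb. The 4 longer ones were Ndufs1, Ndufa10, Ndufs4 and Ndufaf2, and 0 of them were counted between genotypes. Ndufs1 had 1.46 in control and 1.44 in hKLF6OE, and Ndufs4 had 1.37 and 1.41. Among all genes tested, 226 of 1146 under 30 kb were higher and 78 lower, and 35 of 1318 over 100 kb were higher and 148 lower. Short members missed the threshold as well, among them Ndufs3, Ndufv2, Ndufaf4 and Sdha. Of 33 cytosolic ribosomal proteins, 28 were higher and 0 lower, as were 7 of 11 glycolytic genes. Of mitochondrial ribosomal proteins 0 of 4 were counted, and of assembly factors of other complexes 0 of 7. The 4 were those of 75 mitochondrial ribosomal protein rows that passed the filter. Summed over all 75, the level was higher in hKLF6OE in 23 of 23 clusters (median log2 ratio 0.27), as for the members. Of 9 regulators 0 were higher and 1, Esrrg, was lower, at 32.4 in control and 26.9 in hKLF6OE. The part of gene length in the members' difference was not tested.

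Between the 2 mice given AAI, the nuclear members of normal proximal tubule were seldom counted. Here 0 of 54 nuclear members were higher and 1 lower, where 5.43% of all genes were higher and 6.44% lower, and the lower one was Atp5b, with 3.25 in control with AAI and 2.64 in hKLF6OE with AAI (-0.22). With a pseudocount of 0.1, 2 were higher and 12 lower. Of the mitochondrially encoded genes mt-Co1 was higher (0.24) and 5 were lower. Cox8a stood at 2.04 and 1.85, and Ndufa4 at 1.20 and 1.17.

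Between the control mouse with AAI and the control mouse without it, 0 of 54 nuclear members of normal proximal tubule were higher and 1, Ndufa6, was lower, where 10.3% of all genes were higher and 8.75% lower, and with a pseudocount of 0.1 the counts were 8 and 6. Ndufa6 had 0.848 without AAI and 0.607 with it. Between the hKLF6OE mice, 0 were higher and 41 lower with AAI, where 17.7% of all genes were higher and 12.9% lower, and 4 were lower with a threshold of 0.5. Cox8a (3.89 without and 1.85 with AAI), Atp5b (4.44 and 2.64) and Atp5d (1.98 and 1.04) had the largest differences. The hKLF6OE mouse without AAI enters both this comparison and that of the genotypes, so the 41 and the 36 are not independent counts. In this comparison too, the long genes went apart from the members. Of 1318 genes over 100 kb, 364 were higher and 102 lower, against 87 higher and 341 lower of 1146 under 30 kb. Of the 41 lower members 40 were under 30 kb, as were 50 of all 54 tested. Among the 50 short members 40 were lower, a larger share than the 341 of 1146 among all short genes. Of 33 cytosolic ribosomal proteins 26 were lower.

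**Figure D3:**
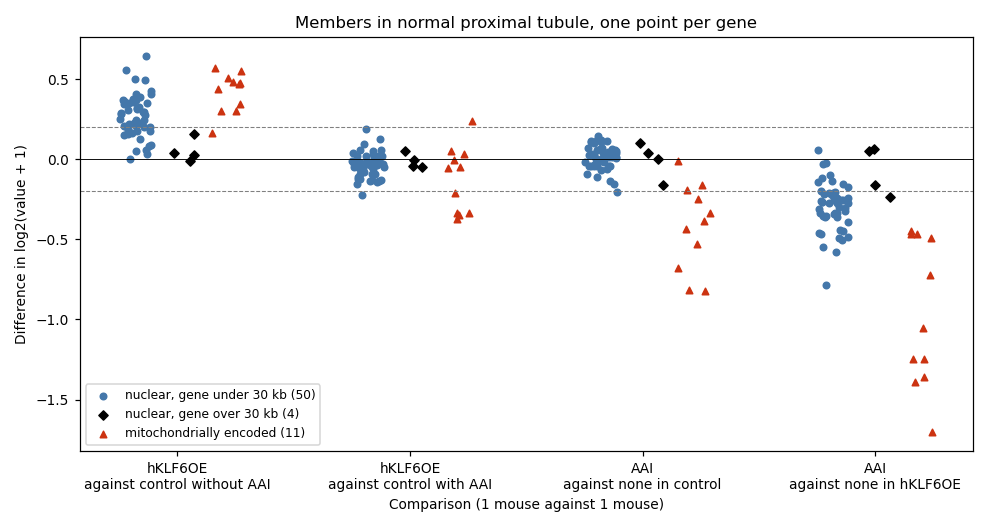
Difference in log2(level + 1) between 2 mice in normal proximal tubule, with 1 point per member that passed the filter and dashed lines at the threshold of 0.2 in each direction. Nuclear members under 30 kb (blue) lie mostly above the upper line in hKLF6OE without AAI and mostly below the lower line for AAI in hKLF6OE, the 4 longer ones (black) are within the lines in the first and, but for Ndufs4 (-0.24), in the second, and the mitochondrially encoded genes (red) are below zero with AAI in both genotypes.

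Other clusters were compared by the median of their nuclear members. Between hKLF6OE and control without AAI, the median of the nuclear members was at least 0.2 in 21 of 23 clusters and above zero in 23. With AAI in hKLF6OE it was at most -0.2 in 21 of 23 clusters and below zero in 23. With AAI in control it was below zero in 16 of 23, and in 2 clusters it reached -0.2. Between the mice with AAI it was above zero in hKLF6OE in 11 of 23 clusters and reached 0.2 in 1, Macrophage, at 0.34, where 30 members were higher and 15 lower beside 39.0% and 35.6% of all genes. InjuredPT-A had 21 of 54 nuclear members higher and 1 lower in hKLF6OE with AAI, beside 12.3% of all genes higher and 16.9% lower, with a median of 0.14, and 7 of 11 mitochondrially encoded genes higher and 0 lower. InjuredPT-B had 1 higher and 15 lower, beside 16.7% and 16.4%. In single clusters up to 42.1% of all genes were counted in one direction.

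In the ascending limb 35 of 54 nuclear members were higher in hKLF6OE than in control without AAI and 1 lower, where 9.41% of all genes were higher and 15.2% lower. In the distal convoluted tubule 29 were higher and 3 lower, where 8.43% were higher and 14.3% lower. In podocytes 34 were higher and 1 lower, where 26.3% were higher and 25.9% lower. In all 3, as in the proximal tubule, the nuclear members were mostly higher. With AAI these counts were 4 higher and 4 lower in the ascending limb, where 7.14% of all genes were higher and 7.96% lower. They were 1 and 6 in the distal convoluted tubule, where 5.71% were higher and 10% lower, and 8 and 18 in podocytes, where 18.4% were higher and 21.3% lower.

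Between the control mice, 1 nuclear member was higher with AAI and 10 lower in the ascending limb, where 13.3% of all genes were higher and 13.1% lower. In the distal convoluted tubule 0 were higher and 11 lower, where 16.2% were higher and 9.81% lower, and in podocytes 13 were higher and 13 lower, where 23.8% were higher and 22.1% lower. In hKLF6OE the counts with AAI were 0 higher and 35 lower in the ascending limb, where 20.1% of all genes were higher and 15.2% lower. They were 2 and 39 in the distal convoluted tubule, where 23.5% were higher and 13.7% lower, and 1 and 44 in podocytes, where 26.5% were higher and 26% lower. The mitochondrially encoded genes were lower with AAI in all 3, 8 to 11 of 11 in control and 11 of 11 in hKLF6OE.

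The mitochondrially encoded genes were lower relative to the nuclear members in the mouse with AAI than in the mouse without it, in both genotypes. With 1 library per condition, AAI and differences between libraries cannot be told apart. The ratio of the mitochondrially encoded to the nuclear sum had a median over 23 clusters of 3.13 in control, 2.10 in control with AAI, 3.03 in hKLF6OE and 2.00 in hKLF6OE with AAI. It was lower with AAI in 23 of 23 clusters in control (median log2 ratio -0.60) and in 23 of 23 in hKLF6OE (-0.53). In LH-AL-1 it was 3.13 without and 2.12 with AAI in control, and 3.03 and 1.77 in hKLF6OE. In PT-S3-3 it was 2.75 and 1.81, and 2.75 and 1.57. The smallest difference was in DCT_CNT of the control mice, at 2.55 and 2.46. Between genotypes the ratio was not shifted in one direction, with 8 of 23 clusters higher in hKLF6OE without AAI and 11 of 23 with AAI, and medians of -0.04 and -0.01. The clusters of 1 mouse share a library and are not replicates.

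As sums, the mitochondrially encoded genes had a median log2 ratio over clusters of -0.71 with AAI in control and -1.20 with AAI in hKLF6OE, while cytosolic ribosomal proteins had 0.13 and -0.79. The 8 abundant proximal tubule transcripts had -0.52 and -1.12, being lower with AAI in 23 of 23 clusters in both genotypes. Their part in the lower mitochondrially encoded sum was not tested, and nuclei with a high mitochondrial share had been left out by the authors, which caps this sum.

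The make-up of the mitochondrially encoded counts differed with AAI as well. In normal proximal tubule mt-Co1, the catalytic subunit of complex IV, made up 20.1% of them in control, 23.04% in control with AAI, 18.3% in hKLF6OE and 30.2% in hKLF6OE with AAI. Its share was higher with AAI in 22 of 23 clusters in control and in 23 of 23 in hKLF6OE, and with AAI it was higher in hKLF6OE than in control in 23 of 23. mt-Nd1, a membrane subunit of complex I, was 3.52% without and 5.07% with AAI in control and 3.55% and 5.37% in hKLF6OE, higher in 23 of 23 clusters in both genotypes, and mt-Nd2 was higher in 21 and 22. mt-Atp6, the proton channel subunit of complex V, was 15.3% and 12.2% in control and 16.2% and 10.5% in hKLF6OE, and was higher in 0 of 23 clusters in either genotype. mt-Nd4 was higher in 0 and 2 clusters, and mt-Cytb, the complex III subunit, in 2 and 3. In the order of the mitochondrial genome, mt-Nd1, mt-Nd2 and mt-Co1 come first, between chrM:2751-3707 and chrM:5328-6872 on the plus strand, and mt-Atp6, mt-Nd4 and mt-Cytb lie further on, from chrM:7927-8607 to chrM:14145-15288. mt-Nd5, at chrM:11742-13565, did not follow that order, its small share being higher with AAI in 19 of 23 clusters in both genotypes. mt-Co2 and mt-Co3, the other subunits of complex IV in this genome, were mixed in control, where their share was higher in 16 and 7 clusters, and in hKLF6OE it was higher in 2 and 1. mt-Nd3 was likewise higher in 15 and 6. mt-Nd4l (10 and 12), mt-Atp8 (11 and 14) and mt-Nd6 (8 and 9), each under 1% of these counts in normal proximal tubule, had no common direction. mt-Nd6 is the one member of the 13 on the minus strand.

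**Figure D4:**
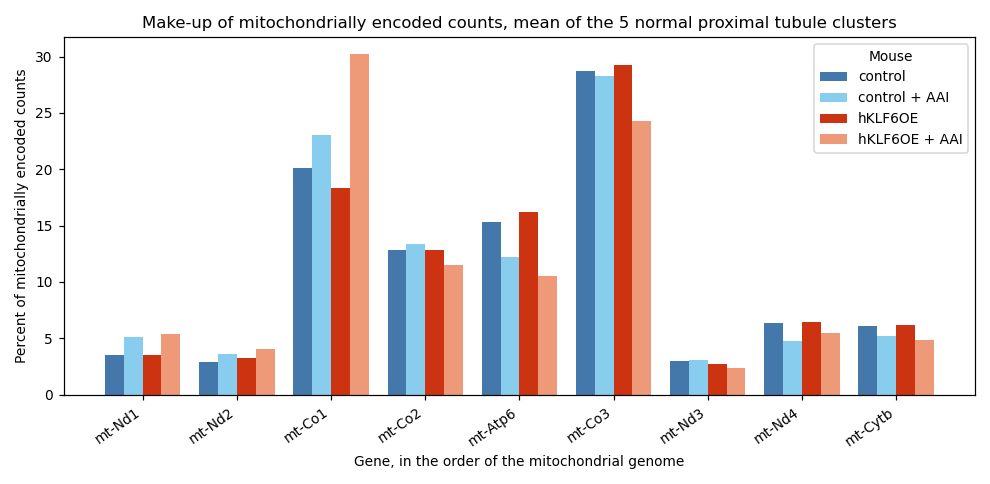
Share of each mitochondrially encoded gene in the sum of the 13, in percent, averaged over 5 normal proximal tubule clusters for each of 4 mice, with genes in genome order and those under 2% on average left out. mt-Nd1 and mt-Co1 have taller bars with AAI and mt-Atp6 shorter ones in both genotypes, and mt-Co1 reaches 30.2% in hKLF6OE with AAI.

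The injured clusters were compared with normal proximal tubule of the same mouse given AAI, and a gene was counted where both mice differed by at least 0.2. The names InjuredPT-A and InjuredPT-B are the authors', and their markers were highest in these clusters (summed markers of 18.2 and 7.05). In InjuredPT-A 37 of 54 nuclear members were higher and 0 lower, where 28.1% of all genes were higher and 30.5% lower, with medians of 0.32 in control and 0.55 in hKLF6OE, and 11 were higher with a threshold of 0.5. All 11 mitochondrially encoded genes that passed the filter were higher. Cox8a had 4.03 and 5.13 against 2.04 and 1.85, and Atp5b had 5.57 and 5.99 against 3.25 and 2.64. Not every subunit was higher, since Ndufs1 had 1.44 and 1.54 against 1.46 and 1.54, Ndufs4 had 0.636 and 0.790 against 1.12 and 1.05, and Sdhb, the iron-sulfur subunit of complex II, had 0.837 and 0.733 against 1.17 and 0.984.

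All 33 cytosolic ribosomal proteins tested were higher in InjuredPT-A, and so were all 5 abundant distal transcripts, which these cells should lack, with medians of 0.61 and 0.94. Among all genes under 30 kb, 682 of 1146 were higher and 106 lower, with medians of 0.36 in control and 0.39 in hKLF6OE. Of the 50 nuclear members under 30 kb, 35 were higher and 0 lower, with medians of 0.33 and 0.55. Among all genes over 100 kb, 57 of 1318 were higher and 780 lower. The part of gene length and of RNA from other cells in the members' difference was not tested. Of 9 regulators Yy1 was higher (1.05 and 0.79) and 3 were lower, with Esrrg at 3.17 and 5.28 against 40.2 and 40.9, Ppara at 1.43 and 1.30 against 10.7 and 8.02, and Ppargc1a at 1.02 and 1.13 against 2.11 and 2.24.

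Ndufaf2, an assembly factor of complex I, gave the largest difference of any nuclear member. In InjuredPT-A its level was 5.03 in control with AAI and 4.02 in hKLF6OE with AAI, against 0.533 and 0.526 in normal proximal tubule, a difference of 1.97 and 1.72. In the same cluster it was 0.966 in control and 0.584 in hKLF6OE without AAI. Over the 84 columns outside the injured clusters it ran from 0 to 1.62 with a median of 0.495, and the highest of these were Macrophage of hKLF6OE with AAI and LH-DL of control, at 1.32, both clusters with many genes at 0. InjuredPT-A of both mice with AAI thus lay above every other column.

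At 156 kb Ndufaf2 is the longest of the 54 nuclear members tested, at chr13:108002715-108158623 on the minus strand, in a comparison where 780 of 1318 genes over 100 kb were lower. Smim15 lies within it on the plus strand, at chr13:108044446-108049172, and had 0.626 and 0.359 in the same columns. Ercc8, a DNA repair gene that starts 108 bases from Ndufaf2 on the other strand, had 0.171 and 0.138. Neither reached the level of Ndufaf2. The other assembly factor that passed the filter, Ndufaf4, was higher as well, at 1.23 and 1.69 against 0.646 and 0.668.

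In InjuredPT-B Ndufaf2 was the 1 nuclear member counted as higher, with 0 lower, where 18.7% of all genes were higher and 12% lower. It had 1.30 and 1.16 against 0.533 and 0.526. With a pseudocount of 0.1, 4 members were higher and 1 lower. Of the mitochondrially encoded genes 0 of 11 were counted there, and the medians of the nuclear members were 0.04 and -0.06. Without AAI, InjuredPT-B had 0.474 in control and 0.313 in hKLF6OE for Ndufaf2, within the range of the other clusters.

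**Figure D5:**
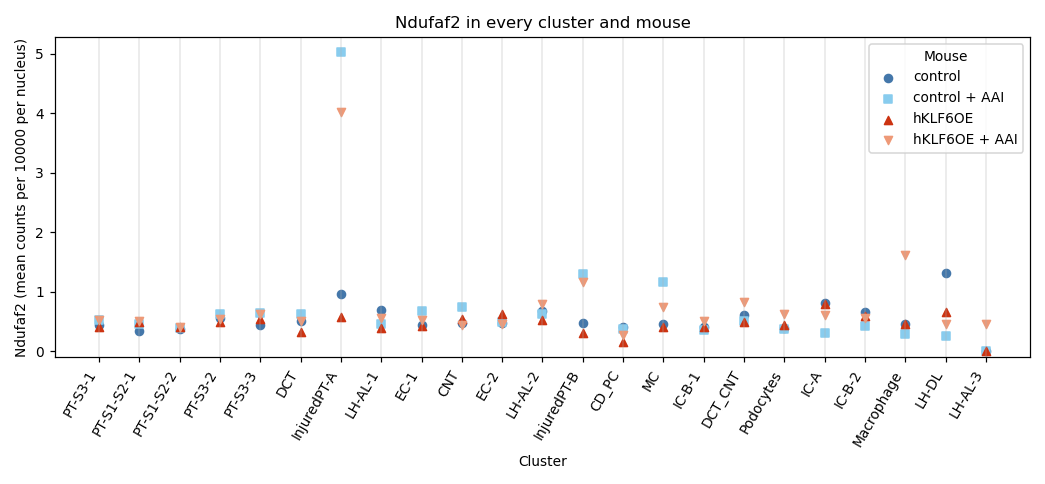
Level of Ndufaf2 in counts per 10000 per nucleus in each of 23 clusters, with 1 point per mouse. InjuredPT-A of the 2 mice with AAI stands at 5.03 and 4.02, InjuredPT-B of the same mice at 1.30 and 1.16, and the highest other point is 1.62, in Macrophage of hKLF6OE with AAI.

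Alternative isoforms of complex IV and Ndufa4l2 were all too low for the filter. Cox7b2, an isoform of Cox7b known from testis, was above 0 in all 4 mice in podocytes alone, at 0.164, 0.360, 0.440 and 0.289. It was listed at 0 in 73 of the other 88 columns, and the highest of these was LH-AL-3 of hKLF6OE with AAI, at 0.673, a cluster with 61.5% of genes at 0. After that came IC-A of control with AAI, at 0.110. Cox4i2, the oxygen-sensitive isoform, was above 0 in 14 of 92 columns and Cox6a2, the muscle isoform, in 11. Ndufa4l2, a hypoxia-induced paralog, was above 0 in 28, Cox7a1 in 53 and Cox6b2 in 67. The mean of 4 mice for these 5 was at most 0.177 in any cluster. A match to none of the searched letters in the Cox7b2 window, shown above, says only that they are absent there.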

How the data were processed

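Nuclei of kidney cortex from 4 mice, 1 per condition, were sequenced on the 10x platform. The deposited signal values were made by the authors: per the labels and the study's methods, reads were counted with Cell Ranger on mm10 with a pre-mRNA reference, so that intronic reads count, nuclei were filtered by gene number and mitochondrial share, and Seurat was used to cluster them. Cell Ranger was version 3.1.0 and Seurat version 4.3. Removal of doublets is not described. Each value is the mean over the nuclei of 1 cluster and 1 mouse, and each of 92 columns sums to 10000. Depth and nuclei per column are unknown.

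Of 19632 rows, 23 with date-like names were left out. Cluster names follow the order of sheets in the study's marker table. Differences were taken on log2(value + 1) with a threshold of 0.2, for the 4272 genes with a mean of at least 0.5. No test was run, since each condition has 1 mouse and an additive model would leave 1 residual degree of freedom. Named genes were all mt- rows, the regulators and isoforms, the member with the highest mean of each complex, and the called members with the largest differences (5 per segment comparison, ranked by the smallest of 4 mice, and 3 per condition or injured cluster). From the other lists the 2 genes with the largest difference in each direction were named. Genes named outside that rule (Ndufs4, Ndufaf4 and Sdhb in InjuredPT-A, members below the threshold, members of short counts, the S3 carriers, Kap in podocytes, Smim15 and Ercc8) were chosen after their values were seen. Members, lists and comparisons were chosen with earlier results of these data known. Alternatives were another pseudocount, filter, threshold, centring, scaling, reference or set of clusters, and each mouse left out. On simulated data with little noise, the calls recovered the more abundant of the genes that had been changed. That check does not measure the error of the calls on these data. Promoters came from RefSeq, the NRF1 core was shortened after its matches had been counted with a longer one, and gene spans from GRCm38. Python 3.11.15, numpy 2.4.6, pandas 2.3.3 and matplotlib 3.10.9 were used.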

Additional observations from a re-analysis of the deposited data

Results flagged for a closer look

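In several clusters the members differed in opposite directions, by at least 0.2, under the same contrast in 2 settings, and with 1 mouse per condition the difference between the settings was not tested. In LH-DL the median of the nuclear members was 0.2024 higher with AAI in control and differed by -0.5005 with AAI in hKLF6OE. For the mitochondrially encoded members, hKLF6OE was above control without AAI and below it with AAI in 7 clusters. The medians were 0.4075 and -0.2644 in PT-S3-2, 0.4158 and -0.2941 in PT-S3-3, 0.3952 and -0.2729 in LH-AL-1, and 0.2538 and -0.417 in EC-1. In DCT_CNT they were 0.3416 and -0.3835, in podocytes 0.5398 and -0.4426, and in LH-DL 0.4283 and -0.4172.

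By gene in normal proximal tubule, Atp5b was the 1 nuclear member with this pattern, at 0.424 without AAI and -0.2244 with it. The mitochondrially encoded ones were mt-Co2 (0.4764 and -0.333), mt-Atp6 (0.5492 and -0.3328), mt-Co3 (0.5082 and -0.3481), mt-Nd3 (0.3001 and -0.3706) and mt-Cytb (0.4686 and -0.2087). The clusters of a mouse come from 1 library and share its values, so they are not separate instances.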

How the results depend on the processing

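No median or single-gene difference of at least 0.2 in size changed sign under the alternatives run. Counts and smaller differences were not checked for a change of direction. With a pseudocount of 0.1 the nuclear members counted as higher were 37 in the ascending limb and 22 in the distal convoluted tubule, 37 were lower in PT-S3, and between genotypes with AAI 2 were higher and 12 lower. With AAI in control it gave 8 higher and 6 lower, in InjuredPT-A 2 lower, and in InjuredPT-B 4 higher and 1 lower. With a threshold of 0.5 the counts were 1 higher in the ascending limb, 0 in the distal convoluted tubule and in type A intercalated cells, 0 lower in PT-S3, 2 higher in hKLF6OE without AAI, 0 lower between genotypes with AAI, 0 lower with AAI in control, 4 lower with AAI in hKLF6OE, and 11 higher in InjuredPT-A. With no filter, or with the larger side at least 0.5, 1 member was lower in the ascending limb and 1 in InjuredPT-A. Including LH-AL-3 in the ascending limb, an alternative chosen after seeing the data, gave 4 higher. Centring gave 1 lower in InjuredPT-B, and the PT-S3 clusters as reference gave 2 higher there. Leaving out 1 mouse at a time gave 17 to 22 higher in the ascending limb, 11 to 14 in the distal convoluted tubule, 10 to 15 in type A intercalated cells and 12 to 17 lower in PT-S3. Of all these counts and sums under the alternatives, 140 stayed within 1.5 times or 1 SD and 27 did not. Leaving out the mitochondrially encoded and ribosomal protein rows before scaling moved no count that far. Segments were already compared within each mouse. No paired analysis was possible because, between conditions, no replicate number joins mice, of which there is 1 per condition. Depth per column is unknown, which limits single values of low members most.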
